A study of Rattus norvegicus with 12 samples.

Results

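The 10 genes described here encode transcription factors that specify GABA-releasing neurons of the ventral forebrain and the olfactory bulb: the distal-less homeobox genes Dlx1, Dlx2, Dlx5 and Dlx6, the zinc finger genes Sp9 and Tshz1, the three-amino-acid-loop (TALE) homeobox genes Meis1, Meis2 and Pbx3, and the paired box gene Pax6. They were taken by symbol from a table of 22431 genes, where each had 1 row. The list was chosen by symbol with the measured levels of these genes in these libraries already known, so their levels and fold changes in all 3 comparisons are given as descriptions, with no test of the list and no claim built on it. All 10 were above every saline library in 3 of the 4 libraries labelled postnatal oxycodone and in 1 of the 4 labelled in utero oxycodone. These 4 libraries were also the ones with raised markers of the olfactory bulb. No share over all genes is given for single libraries above every saline library, so nothing is read from this count.

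RNA came from the prefrontal cortex of 12 wild-type rat offspring in early adolescence, 1 library per animal, in 3 groups of 4: saline controls, the group labelled postnatal oxycodone (PNO), and the group labelled in utero oxycodone (IUO). The drug, which activates opioid receptors, was given by oral gavage at 15 mg/kg, either before or after pregnancy, with dosing up to postnatal day 21 at the latest, and the labels do not give the days for each group. Each group of 4 came from 2 dams with 2 animals per dam, and the labels tie no animal to a dam, so tests that count each animal separately can give p-values that are too small, and dam is no term in them. Neither the sex nor the exact age of the animals is in the labels, and no group beyond saline, PNO and IUO is used here.

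In the embryo, GABAergic neurons are born in the ganglionic eminences of the ventral forebrain. The medial eminence supplies many cortical interneurons, and the lateral eminence supplies striatal projection neurons and the interneurons of the olfactory bulb. Dlx factors switch on the GABA programme in these precursors and direct their migration, Sp9 and Tshz1 act in the lateral lineage, and Meis and Pbx proteins are DNA-binding partners of other homeodomain factors. Bulb interneurons continue to be produced after birth, when neuroblasts migrate from the subventricular zone through the rostral migratory stream, which runs beneath the frontal cortex. Pax6 and Meis2 are known for their part in the dopaminergic periglomerular cells of the bulb.

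Total counts ran from 49227533 to 60672246 per library. The 7 cortical excitatory neuron genes, among them Slc17a7 and Tbr1, had a mean log2 CPM (counts per 1000000 library counts) between 6.35 and 6.71 in all 12 libraries, which fits the cortical label. Markers of neighbouring regions were uneven. The mean log2 CPM of 5 genes of bulb projection neurons (Eomes, Tbx21, Cdhr1, Doc2g and Lbhd2) reached 3.51 (PNO 1), 3.57 (PNO 3), 3.95 (PNO 4) and 4.17 (IUO 3), while the remaining 8 libraries spanned 0.453 to 1.42. For 13 striatal genes, among them Drd2 and Ppp1r1b, the values were 6.79 (PNO 2), 6.34 (IUO 2), 5.21 (IUO 1) and 4.98 (saline 2). Elsewhere it was 3.88 to 4.03. A library is called raised for a list when its mean lay over 0.5 log2 units above the median library. Saline 1, saline 3, saline 4 and IUO 4 were raised for neither. In bulk tissue, fewer cells of a type and less RNA per cell cannot be told apart.

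The genes lie in a few places of the rat genome, given here as positions printed in the deposited table, whose build is not given in the sources used here. Dlx1 (ENSRNOG00000001520, chr3:56356190-56360780, plus strand) and Dlx2 (ENSRNOG00000001519, chr3:56370483-56373597, minus strand) are transcribed toward each other, 9702 bases apart, with no gene of the table between them. Dlx5 (ENSRNOG00000010905, chr4:34999139-35003407, minus strand) and Dlx6 (ENSRNOG00000063630, chr4:34984232-34991343, plus strand) form a second convergent pair, 7795 bases apart. Sp9 (ENSRNOG00000028187, chr3:58146826-58149357, plus strand) lies 1773 kb beyond Dlx2. Pax6 (ENSRNOG00000004410, chr3:92135637-92157014), Meis2 (ENSRNOG00000004730, chr3:102742900-102949696) and Pbx3 (ENSRNOG00000022162, chr3:17488693-17682791) bring the number of members on chromosome 3 to 6. Meis1 (ENSRNOG00000004606, chr14:93155419-93294265) and Tshz1 (ENSRNOG00000016246, chr18:77377394-77453509) stand alone on their chromosomes.

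RefSeq promoter windows on build GRCr8, from 250 bases before to 50 after the gene start, matched 5 of the 10 genes by symbol: Dlx1, Sp9, Tshz1, Meis1 and Pax6. The windows of Dlx1, Sp9 and Pax6 are shown because these 3 genes had different patterns across libraries, described further on: Dlx1 was high in libraries with raised bulb markers alone, Sp9 was also higher in PNO 2, where striatal markers were highest, and Pax6 followed neither set closely. Capitals mark matches on either strand to TAATTA (a homeodomain core), TGACAG (a TALE core), GGGCGG (an Sp box), CCAAT and TATAAA.
Dlx1 (GRCr8 chr3:76763614-76763913, plus strand): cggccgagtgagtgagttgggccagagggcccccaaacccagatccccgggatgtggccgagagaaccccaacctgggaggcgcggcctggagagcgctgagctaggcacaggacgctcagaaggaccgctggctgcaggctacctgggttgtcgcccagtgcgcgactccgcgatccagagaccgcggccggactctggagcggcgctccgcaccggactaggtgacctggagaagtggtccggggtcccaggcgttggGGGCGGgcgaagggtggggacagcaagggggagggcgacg
Sp9 (GRCr8 chr3:78554095-78554394, plus strand): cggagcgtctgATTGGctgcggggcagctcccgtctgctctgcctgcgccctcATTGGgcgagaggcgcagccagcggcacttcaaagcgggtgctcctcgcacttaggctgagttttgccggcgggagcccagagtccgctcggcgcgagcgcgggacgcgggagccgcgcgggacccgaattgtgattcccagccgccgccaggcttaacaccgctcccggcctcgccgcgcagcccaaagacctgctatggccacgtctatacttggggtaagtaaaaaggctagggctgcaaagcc
Pax6 (GRCr8 chr3:112590346-112590645, plus strand): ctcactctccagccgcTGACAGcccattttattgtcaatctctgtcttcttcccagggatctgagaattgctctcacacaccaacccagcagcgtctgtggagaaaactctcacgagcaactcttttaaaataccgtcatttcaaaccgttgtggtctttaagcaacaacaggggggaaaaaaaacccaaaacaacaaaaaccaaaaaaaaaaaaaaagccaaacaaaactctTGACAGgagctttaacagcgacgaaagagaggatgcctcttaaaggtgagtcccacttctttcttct
The Dlx1 window held 1 GGGCGG, which is present in 33.1% of 33469 promoter windows of this length. Sp9 held 2 matches to CCAAT, both in the reverse orientation ATTGG, against a share of 37.5% of windows with at least 1. Pax6 held 2 and Tshz1 held 1 match to TGACAG, present in 19.0% of windows. The Meis1 window held 0 of the 5 motifs. TAATTA, found in 5.36% of windows, and TATAAA, found in 14.2%, matched 0 of the 5 genes. GC content was 70.3% for Dlx1 and 67.0% for Sp9, against 43.0% for Pax6, 43.7% for Meis1, 40.7% for Tshz1 and a median of 51.7% over all windows. A match describes letters in a window and not a bound site.

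Levels between genes are compared in FPKM, which scales counts to gene length. In saline, Meis2 was highest at 9.74 ± 0.781 FPKM (SD, n = 4, as for all group values below), followed by Dlx1 at 8.40 ± 0.678. Dlx5 measured 3.71 ± 1.33, Pbx3 2.97 ± 0.765, Dlx2 2.97 ± 0.704, Tshz1 1.92 ± 0.156 and Pax6 1.57 ± 0.367 FPKM. Meis1 at 1.20 ± 0.199, Sp9 at 1.19 ± 0.568 and Dlx6 at 0.915 ± 0.278 FPKM were lowest. The gap between Dlx1 and Dlx5 exceeded the spread of both. The other neighbours in this order differed by less than the sum of their SDs, apart from Dlx2 and Tshz1. All 10 genes passed the filter of a mean of at least 0.5 FPKM over the 12 libraries.

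**Figure D1:**
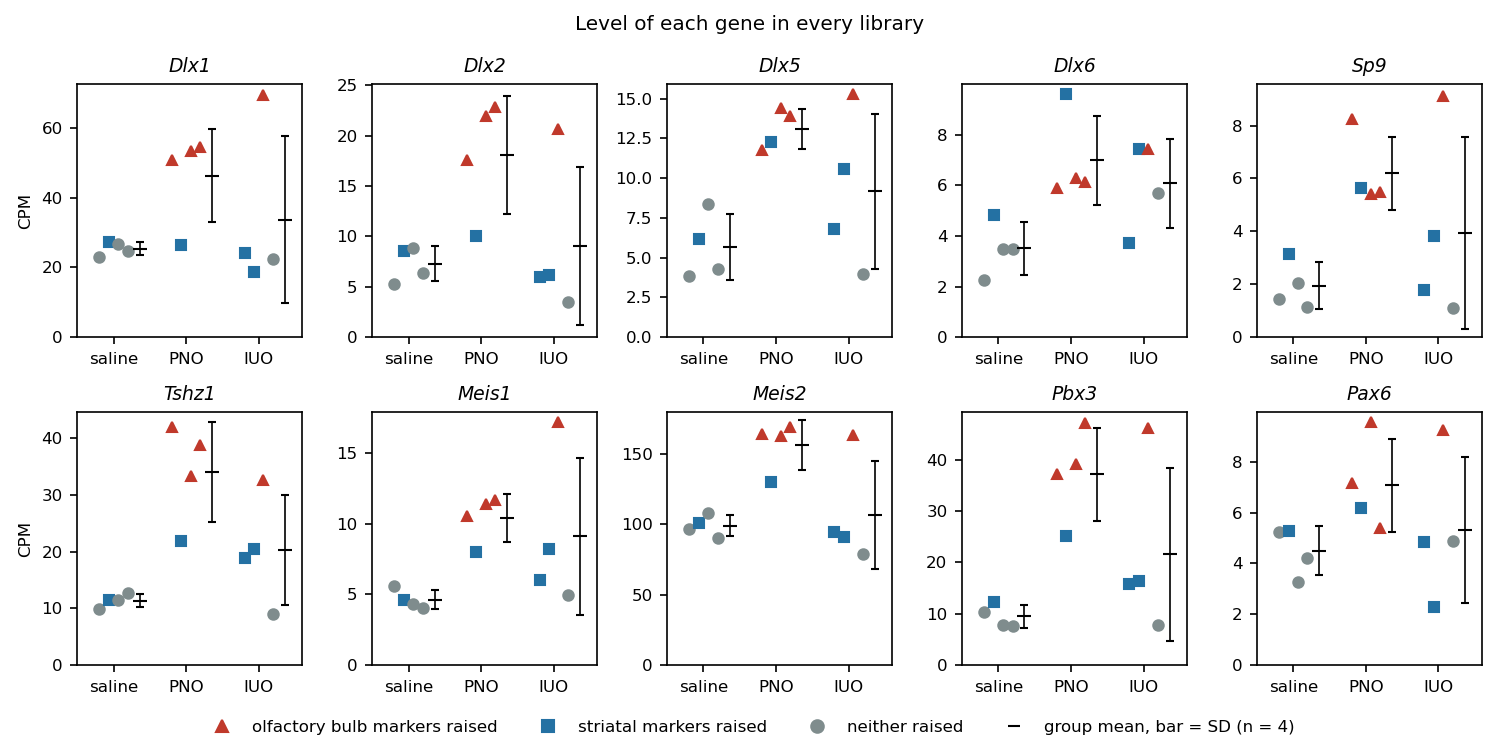
CPM of each of the 10 genes (y axis, from 0, own scale per gene) in the 4 saline, 4 PNO and 4 IUO libraries (x axis). Symbols show which marker list was raised in a library, and the black dash and bar give the group mean and SD. The bulb-raised libraries lie at the top for Dlx1, Dlx2, Tshz1, Meis1, Meis2 and Pbx3, while PNO 2 has the highest Dlx6 at 9.61 CPM.

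The Dlx1 and Dlx2 pair, which is needed for interneuron precursors to leave the ganglionic eminences, followed the bulb markers. Dlx1 measured 22.9, 27.3, 26.7 and 24.7 CPM in saline 1 to 4, 50.8, 26.5, 53.3 and 54.4 CPM in PNO 1 to 4, and 24.2, 18.6, 69.4 and 22.4 CPM in IUO 1 to 4. PNO 2 lay inside the saline range, and IUO 3 was the highest of all libraries. The log2 fold change of Dlx1 was 0.87 (SE 0.36) in PNO against saline and 0.41 (SE 0.36) in IUO against saline. Dlx2 measured 5.25, 8.52, 8.88 and 6.41 CPM in saline, 17.5, 10.1, 21.9 and 22.9 CPM in PNO, and 5.99, 6.17, 20.7 and 3.44 CPM in IUO. All 4 PNO libraries were above all 4 saline libraries, PNO 2 by a small margin, and in IUO the gene was high in IUO 3 alone. The Dlx2 log2 fold change was 1.32 (SE 0.45) in PNO and 0.32 (SE 0.45) in IUO.

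The Dlx5 and Dlx6 pair, which acts after Dlx1 and Dlx2 in the same lineage, was also higher where striatal markers were highest. Dlx5 measured 3.85, 6.19, 8.38 and 4.27 CPM in saline, 11.8, 12.3, 14.4 and 13.9 CPM in PNO, and 6.81, 10.6, 15.3 and 3.99 CPM in IUO. PNO 2 fell within the range of the other PNO libraries, and IUO 2, the second library with strongly raised striatal markers, was above all saline libraries. For Dlx5 the log2 fold change was 1.21 (SE 0.34) in PNO and 0.69 (SE 0.34) in IUO. Dlx6 measured 2.27, 4.83, 3.47 and 3.49 CPM in saline, 5.88, 9.61, 6.29 and 6.14 CPM in PNO, and 3.74, 7.41, 7.42 and 5.71 CPM in IUO. PNO 2 was highest of all, and IUO 2 and IUO 3 were level although their raised markers were of different regions. The log2 fold change of Dlx6 was 0.99 (SE 0.27) in PNO and 0.79 (SE 0.27) in IUO.

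The zinc finger genes were above every saline library in the 4 bulb-raised libraries and in PNO 2 and IUO 2, but not in every striatum-raised library. Sp9, which is needed for striatal projection neurons and, with Sp8, for bulb interneurons, measured 1.45, 3.15, 2.03 and 1.13 CPM in saline and 8.26, 5.64, 5.42 and 5.49 CPM in PNO. In IUO it measured 1.80, 3.81, 9.11 and 1.09 CPM. Among saline libraries the highest was saline 2, the 1 control with raised striatal markers. In PNO the Sp9 log2 fold change was 1.68 (SE 0.53), and in IUO 1.03 (SE 0.53). Tshz1, which acts in the maturation and migration of bulb interneurons, measured 9.88, 11.4, 11.4 and 12.6 CPM in saline, 42.0, 21.9, 33.4 and 38.9 CPM in PNO, and 18.9, 20.4, 32.7 and 8.93 CPM in IUO. Saline values lay close together, IUO 1 and IUO 2 lay between them and the bulb-raised libraries, and IUO 4 was the lowest of all. Tshz1 had a log2 fold change of 1.59 (SE 0.31) in PNO and 0.84 (SE 0.30) in IUO.

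Of the TALE genes, Pbx3 had the largest fold change of the 10. It measured 10.4, 12.2, 7.83 and 7.55 CPM in saline, 37.2, 25.2, 39.2 and 47.1 CPM in PNO, and 15.7, 16.3, 46.2 and 7.80 CPM in IUO. The bulb-raised libraries were highest, the striatum-raised libraries came next, and the 4 libraries with neither were at 7.55 to 10.4 CPM. Fold changes on the log2 scale were 1.97 (SE 0.42) in PNO and 1.18 (SE 0.41) in IUO. Meis1 measured 5.56, 4.59, 4.32 and 4.02 CPM in saline, 10.6, 7.96, 11.4 and 11.6 CPM in PNO, and 6.04, 8.18, 17.2 and 4.97 CPM in IUO. IUO 3 stood above all others, and its log2 fold change was 1.17 (SE 0.32) in PNO and 0.98 (SE 0.32) in IUO.

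Meis2, the most abundant of the 10 per gene length in saline, varied least from library to library. It measured 96.4, 100.5, 107.9 and 90.2 CPM in saline, 164, 129.8, 163 and 169 CPM in PNO, and 94.2, 90.5, 163 and 78.8 CPM in IUO. The 4 bulb-raised libraries lay within 163 to 169 CPM, and the ratio of its highest to its lowest library was 2.14, against 8.39 for Sp9. Its log2 fold change was 0.66 (SE 0.19) in PNO and 0.11 (SE 0.18) in IUO. Pax6, which is also expressed by astrocytes, measured 5.25, 5.27, 3.26 and 4.22 CPM in saline, 7.17, 6.17, 9.59 and 5.39 CPM in PNO, and 4.83, 2.30, 9.25 and 4.90 CPM in IUO. The PNO values began just above the highest saline value, and IUO 2 was the lowest of all. Its log2 fold change was 0.65 (SE 0.33) in PNO and 0.24 (SE 0.33) in IUO. The astrocyte list (Aqp4, Gfap, Aldh1l1, Slc1a3 and Gja1) lay between 7.46 and 7.89 mean log2 CPM in all libraries.

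**Figure D2:**
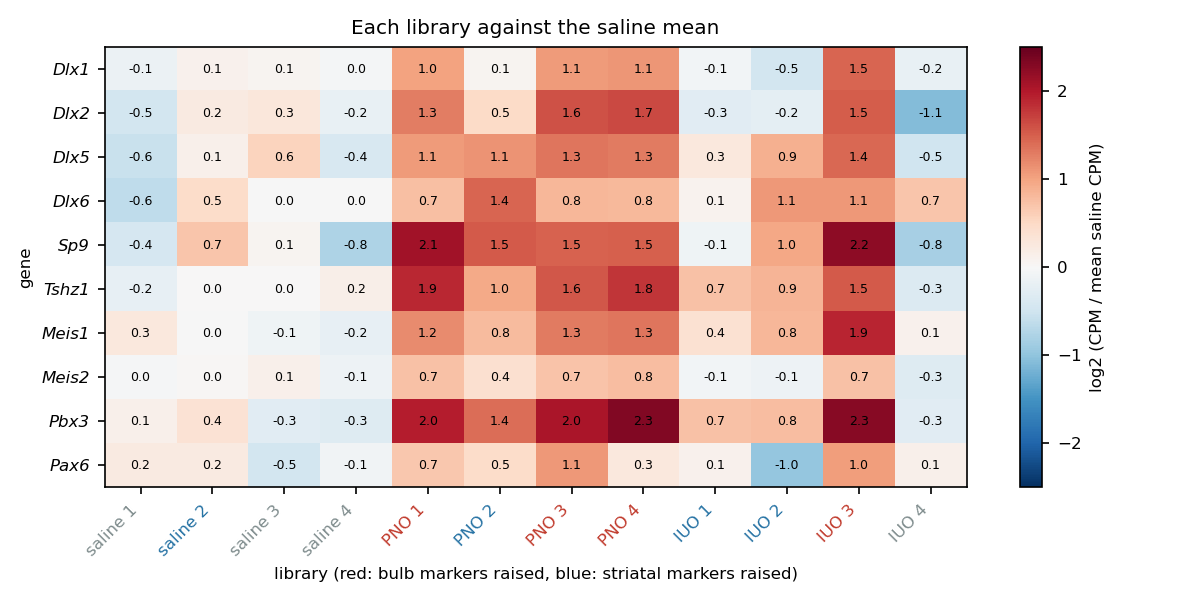
Log2 ratio of CPM in each library (columns) to the mean of the 4 saline libraries for each gene (rows), with the value in each cell and red for higher. PNO 1, PNO 3, PNO 4 and IUO 3 are red in all rows, PNO 2 is palest for Dlx1, and IUO 4 is at or below the saline mean for most genes.

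Across libraries, the median over the 10 genes of the ratio to the saline mean reached 2.18 (PNO 1), 2.5 (PNO 3), 2.48 (PNO 4) and 2.79 (IUO 3). It was 1.83 in PNO 2 and 1.74 in IUO 2, the libraries with the highest striatal means, and 1.07 in IUO 1. IUO 4, which carried neither set of markers, had a median of 0.81. In IUO 4, 1 of 10 genes, Dlx6, was above the saline range, with no share over all genes to set beside it. The 6 genes Dlx1, Dlx2, Tshz1, Meis1, Meis2 and Pbx3 were higher in all 4 bulb-raised libraries than in any of the other 8, which held for 1.21% of all 14170 genes tested. Pbx3 was the 1 member that was higher in all 4 striatum-raised libraries than in all 4 with neither set raised, against 3.45% of genes tested. The libraries with raised bulb markers are 3 PNO, 1 IUO and 0 saline, so the groups are not balanced for these markers, and their part in the group differences was not tested.

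**Figure D3:**
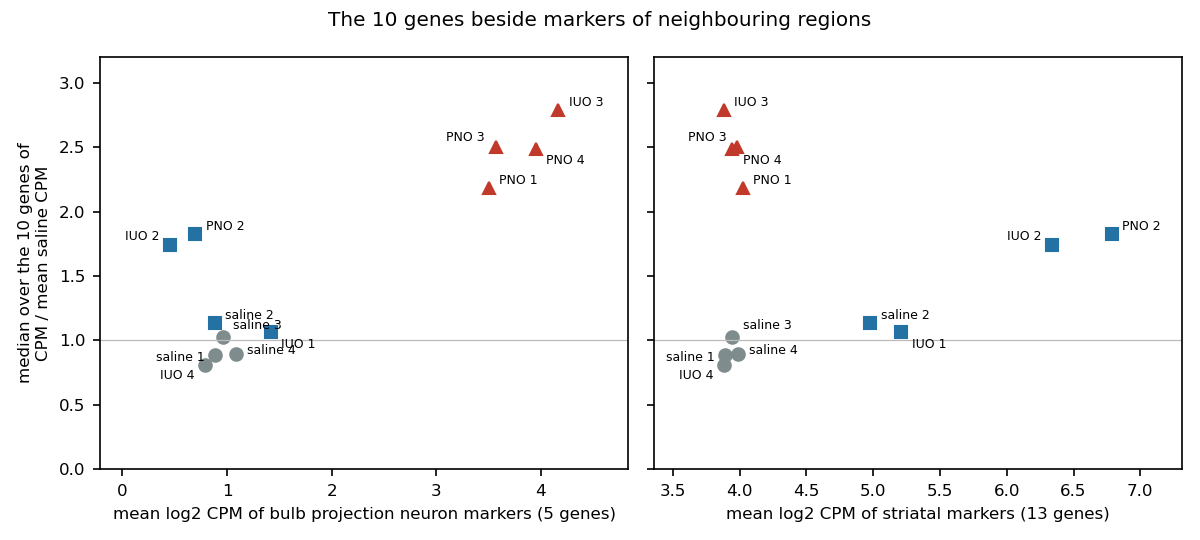
Median over the 10 genes of CPM relative to the saline mean (y axis) against the mean log2 CPM of 5 bulb projection neuron markers (left) and of 13 striatal markers (right), 1 point per library. The 4 bulb-raised libraries lie at 2.18 to 2.79 on the y axis, and PNO 2 and IUO 2 at 1.83 and 1.74 with few bulb markers and many striatal ones.

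PNO was compared with saline first. All 10 genes had a positive log2 fold change, from 0.65 to 1.97 with a median of 1.19, beside a median of 0.01 over all 14170 genes, of which 51.2% were positive. In 9 of the 10, all except Dlx1, every PNO library was above every saline library, which held for 5.17% of all genes, and 0 were lower in every PNO library, which held for 4.66%. The edgeR quasi-likelihood test called 0 of the 10 (adjusted p from 0.305 to 0.497), as it did 0 of 14170 genes (0%), with 1564 genes at an unadjusted p under 0.05. DESeq2 called 117 genes (0.826%), and 5 of the 10 were among them: Dlx5, Dlx6, Tshz1, Meis1 and Pbx3. Because the genes were chosen with these libraries known, nothing is read from these counts. Without IUO 4, which enters only the shared estimate of spread, edgeR called 19 of 14170 genes, including Tshz1 and Pbx3. A fit of the 8 PNO and saline libraries alone called 11 of 14170, including Tshz1, Meis1, Meis2 and Pbx3. For the same reason, nothing is read from the members called in these fits.

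Fold changes in PNO depended on which libraries were kept. Without the 4 bulb-raised libraries PNO 2 is the lone PNO library and is assumed to vary like the other groups, and the median was 0.85. PNO 2 is also the library with the highest striatal mean, so the values of this fit are those of a striatum-raised library. Dlx1 then had a log2 fold change of 0.05 (SE 0.19) and Dlx2 of 0.46 (SE 0.37), while Dlx6 had 1.43 (SE 0.40), Sp9 1.52 (SE 0.61) and Pbx3 1.39 (SE 0.37). Without the 4 striatum-raised libraries the median was 1.28. In that fit PNO 1, PNO 3 and PNO 4, all bulb-raised, stood against saline 1, saline 3 and saline 4, which were raised for neither. Group and bulb markers therefore cannot be told apart in it. With the bulb and striatal marker means as covariates the median was 0.04, and 6 of the 10 were positive. In that fit Dlx6 had the largest estimate at 0.58 (SE 0.38), and Dlx2 (-0.44, SE 0.27) and Sp9 (-0.43, SE 0.48) were negative.

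In IUO against saline the 10 log2 fold changes were again positive, from 0.11 for Meis2 to 1.18 for Pbx3, with a median of 0.74 beside 0.02 over all genes, of which 56.4% were positive. Both comparisons use the same saline libraries. In 0 of the 10 genes was every IUO library above every saline library, a pattern shown by 1.15% of genes, and in 0 was every IUO library below, shown by 1.03%. EdgeR called 0 of the 10 (adjusted p = 0.998 for each) and 0 of 14170 genes (0%), with 570 genes at an unadjusted p under 0.05, and DESeq2 called 11 genes (0.0776%), with 0 of the 10 among them. Without IUO 3 the median was 0.26 and 6 of the 10 were positive, with Dlx1 at -0.22 (SE 0.21), Dlx2 at -0.48 (SE 0.30), Meis2 at -0.17 (SE 0.11) and Pax6 at -0.17 (SE 0.29). Dlx6 measured 0.67 (SE 0.29), Tshz1 0.51 (SE 0.26), Pbx3 0.48 (SE 0.27) and Meis1 0.47 (SE 0.20) without it. With both marker means as covariates the median was -0.12 and 3 of the 10 were positive.

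IUO against PNO gave negative log2 fold changes for all 10, from -1.0 for Dlx2 to -0.19 for Meis1, with a median of -0.53 beside 0.00 over all genes, of which 50.8% were positive. For 0 of the 10 did the groups separate, since IUO 3 lay within or above the PNO range in each. A full separation with IUO lower was seen for 1.78% of genes and with IUO higher for 1.85%. EdgeR called 0 of the 10 (adjusted p from 0.714 to 0.881) and 0 genes in all (0%), with 953 genes at an unadjusted p under 0.05, and DESeq2 called 8 genes (0.0565%) with 0 of the 10. Without IUO 3 the median was -0.97, and without IUO 4 it was -0.35.

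**Figure D4:**
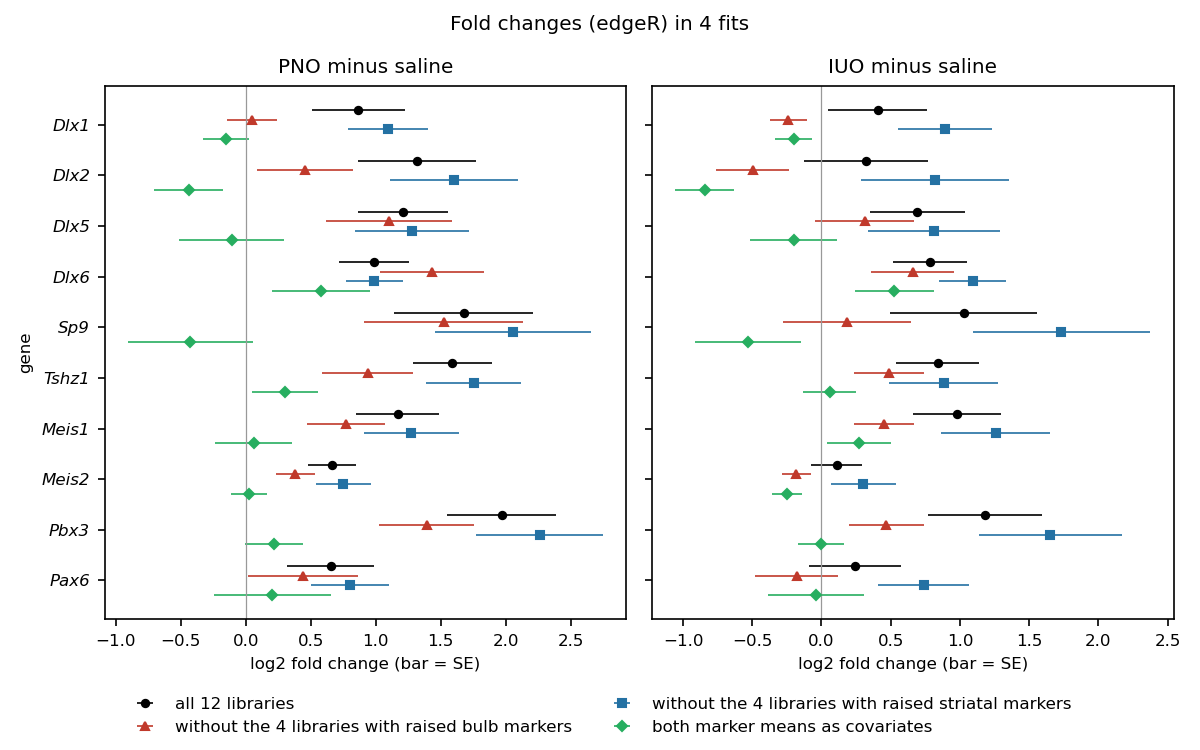
EdgeR log2 fold changes (x axis, bar = SE) of the 10 genes (rows) in PNO against saline (left) and IUO against saline (right) in 4 fits, 1 colour each. Leaving out the bulb-raised libraries moves Dlx1 and Dlx2 toward or below 0 and leaves Dlx6 and Sp9 high in PNO. The lone PNO library in that fit is PNO 2, which has the highest striatal mean. The covariate fit brings the PNO median to 0.04.

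Paralogs of the 10 genes were read from a list written with the earlier results known. Of 10 listed, 8 were in the table and 7 passed the filter. Dlx3, with 8 counts over all 12 libraries, did not. EdgeR called 0 of the 7 in each comparison, and DESeq2 called Tshz2 in PNO (adjusted p = 0.0260) and 0 in the other comparisons. Against saline, 6 of the 7 were higher in PNO by the fitted fold change (median 0.10 on the log2 scale) and 5 of the 7 in IUO (median 0.05). Sp8, the partner of Sp9 in bulb interneurons, measured 2.68 ± 0.986 CPM in saline, 10.3 ± 5.79 in PNO and 5.87 ± 7.79 in IUO. The bulb-raised libraries spanned 9.86 to 17.5 CPM and the other 8 spanned 1.45 to 3.96 CPM. Tshz2 measured 6.41 to 18.4 CPM in the striatum-raised libraries and 9.14 to 11.8 CPM in the bulb-raised libraries. Where neither list was raised, it measured 5.41 to 6.58 CPM. Pbx2 (63.1 ± 6.72 CPM in saline and 66.8 ± 5.42 in PNO), Meis3 (34.6 ± 4.52 and 37.0 ± 5.86), Tshz3 (26.6 ± 2.47 and 27.3 ± 3.38) and Pbx4 (7.71 ± 1.48 and 6.93 ± 0.851) differed less between the groups.

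Other regulators of striatal and bulb neurons and those of cortical interneurons were read the same way. Of 17 striatal and bulb regulators 10 passed the filter, 0 were called by edgeR or DESeq2 in any comparison, and 9 were positive in PNO on the log2 scale (median 0.33). Among the 3 most abundant, Etv1 measured 57.5 ± 2.66 CPM in saline and 66.9 ± 11.8 in PNO, Bcl11b, a factor of striatal and deep-layer neurons, 23.0 ± 2.6 and 30.2 ± 10.1, and Nr2e1, a factor of neural stem cells and astrocytes, 24.4 ± 2.29 and 23.0 ± 2.98. Of 12 regulators of cortical interneurons 7 passed the filter, 0 were called by either tool, and 4 were positive and 3 negative in PNO with a median of 0.03. Their mean log2 CPM lay between 3.52 and 4.02 in all libraries, and the most abundant, Nr2f1, measured 77.9 ± 8.49 CPM in saline, 75.2 ± 8.94 in PNO and 83.3 ± 11.1 in IUO. Satb1 measured 30.4 ± 3.55, 35.8 ± 3.49 and 38.8 ± 12.9 CPM and Npas1 23.5 ± 3.28, 21 ± 1.20 and 22.2 ± 3.49 CPM in the same order.

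Genes that Dlx factors are known to activate were read next. The mean log2 CPM of Gad1, Gad2 and Slc32a1, which make and load GABA, was 5.28 in IUO 4 and 5.41 to 5.78 in saline, against 6.0 to 6.61 in PNO and 6.10 to 6.48 in IUO 1 to 3. It was highest in PNO 2 and IUO 2, where bulb markers were not raised, but the summed CPM of the 3 genes was highest in PNO 4 (424.5) and IUO 3 (416.5), against 400.2 in PNO 2 and 400.9 in IUO 2. Gad1 spanned 258.9 to 307.4 CPM in the bulb-raised libraries and 164.3 to 258.7 CPM in the other 8. Gad2, with 28.4 CPM in its highest striatum-raised library, overlapped between them. EdgeR called 0 of these 3 in any comparison, and DESeq2 called Gad1 in PNO (adjusted p = 0.0147). Of the 5 cortical interneuron subtype genes in the table (Sst, Vip, Npy, Lamp5 and Reln) 4 were negative in PNO and 1, Reln, was positive, and 0 were called by either tool. The mean log2 CPM of the 5 lay between 6.13 and 6.55 in all 12 libraries. Reln alone of the 5 was higher in all 4 bulb-raised libraries (49.5 to 64.3 CPM) than in the other 8 (17.7 to 46.9 CPM), which held for 1.21% of all genes tested.

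Of the 7 bulb interneuron genes, 5 (Th, Calb2, Scgn, Synpr and Trh) were higher in all 4 bulb-raised libraries than in the other 8, while Tpbg and Prokr2 overlapped. This separation held for 1.21% of all 14170 genes tested, and the lists were written with earlier results known. Of the 6 genes of neuroblasts and dividing cells, Dcx and Igfbpl1 separated in this way, while Sox11, Cd24, Mki67 and Top2a overlapped. The calretinin gene Calb2, expressed by bulb granule and periglomerular cells and by some cortical interneurons, measured 61.4 to 91.8 CPM in those 4 and 10.1 to 20.8 CPM in the other 8. Synpr measured 83.6 to 99.7 against 33.4 to 74.5 CPM, and the doublecortin gene Dcx, a marker of migrating neuroblasts, 54.8 to 75.0 against 21.6 to 27.2 CPM. Summed over the 7 bulb interneuron genes, the level was 98.5 to 134 CPM in saline, 125 to 235 in PNO and 81.7 to 273 in IUO, with Prokr2 at 0 counts in 1 library. Summed over the 5 bulb projection neuron genes it was 22.3 to 30.0 CPM in saline, 25.3 to 178 in PNO and 14.0 to 202 in IUO, with 0 of the 5 at 0 counts in any library. Summed over the 13 striatal genes it was 490.1 to 904 CPM in saline, 496 to 2627 in PNO and 527 to 2078 in IUO. EdgeR called 0 genes of these lists, and DESeq2 called Eomes in PNO (adjusted p = 0.0330). DESeq2 gave no adjusted p for Calb2, Trh and Tbx21 in any comparison, so these were neither called nor passed over by it. The part of the listed genes in the levels of the 10 transcription factor genes was not tested.

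For each of the 10 genes, the 3 other genes with the most similar pattern were taken by Pearson's r of log2 CPM over the 12 libraries. These values are descriptions, and the 4 bulb-raised libraries weigh heavily in them, so r over the other 8 follows each value. The genes nearest to Dlx1 were Spp1 (r = 0.995, and 0.943 over 8), Scgn (0.984 and 0.789) and Calb2 (0.984 and 0.824). Scgn and Calb2 encode calcium-binding proteins of bulb interneurons, and Spp1 encodes osteopontin. Nearest to Dlx2 were Gpsm1 (0.958 and 0.83), Gipr (0.942 and 0.819) and Vipr2 (0.942 and 0.657). Dlx5 was nearest to Zfp467 (0.943 and 0.941), Rfx1 (0.934 and 0.915) and Pcp4l1 (0.917 and 0.83). Dlx6 was nearest to the potassium channel gene Kcna4 (0.923 and 0.971), Auts2l1 (0.892 and 0.898) and C1ql2 (0.866 and 0.904). For Dlx5 and Dlx6 the values over 8 libraries were between 0.83 and 0.971.

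Sp9 was nearest to Pcp4l1 (0.952 and 0.952), Dennd2a (0.937 and 0.889) and Fam184a (0.912 and 0.842). Tshz1 was nearest to Amz1 (0.967 and 0.936), the clock repressor gene Ciart (0.962 and 0.949) and Axin1 (0.954 and 0.935). Meis2 was nearest to Fam184a (0.961 and 0.787), Abcb6 (0.954 and 0.837) and Vipr2 (0.941 and 0.607), and Pbx3 to Fam184a (0.968 and 0.865), the proton channel gene Hvcn1 (0.967 and 0.879) and Amz1 (0.958 and 0.848). Fam184a is thus among the nearest of Sp9, Meis2 and Pbx3. Meis1 was nearest to a gene listed without a symbol (0.947 and 0.728), Rbmx (0.938 and 0.876) and Gm14137 (0.927 and 0.715). Pax6 was nearest to Cpne7 (0.938 and 0.913), S1pr3 (0.935 and 0.948) and Agbl5 (0.895 and 0.854).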

How the data were processed

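Poly(A) RNA from 12 animals was made into stranded libraries, per the labels' protocols. Alignment with HISAT2 and quantification with StringTie are named in the submitters' processing notes, with no version. For the build and annotation, the sources used here give none. The deposited table holds whole-number counts and FPKM (fragments per kilobase per 1000000 mapped fragments) per gene and library, per the file headers. Library totals were 49227533 to 60672246 counts, so for genes with few counts, such as Sp9, counting error adds to the spread between animals.

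Genes with a mean of at least 0.5 FPKM (14170 of 22431) were scaled by TMM and tested in 1 edgeR quasi-likelihood model of the 3 groups, two-sided, with Benjamini-Hochberg adjustment over all genes and a threshold of 0.05, tested on simulated data. CPM and log2 CPM (prior count 2) use the same scaling. SE is the fold change divided by the root of the F statistic. Fits ran in R 4.3.3 with edgeR 4.0.16, with limma 3.58.1 and DESeq2 1.42.0 as alternatives. Summaries were made in Python 3.11.15, and figures with matplotlib 3.10.9. The 10 genes and all lists were chosen with earlier results of these data known. Named genes were the 10 members, the 3 nearest genes to each, the tested paralogs, the 3 most abundant genes of a list, genes called in a list, and markers. The values of 1 paralog are not reported here. Leaving out bulb-raised or striatum-raised libraries and the covariate fit were chosen after seeing the data. The labels do not say that replicate numbers pair the libraries, so no block was used.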

Additional observations from a re-analysis of the deposited data

Results flagged for a closer look

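Each of the 10 genes was checked in each group of 4 for a library far from the other 3, which gave 30 checks and 6 hits. Chance alone gives about 1 in 20 for independent checks. These checks share the same libraries, and the genes were chosen with their levels known. The 6 hits of 30 can therefore not be set against that rate. Dlx1 in PNO 2 measured 26.5 CPM, below the 50.8 to 54.4 CPM of the other PNO libraries, and Meis2 in PNO 2 measured 129.8 CPM, below 163 to 169 CPM. Dlx6 in the same library went the other way, at 9.61 CPM against 5.88 to 6.29 CPM. In IUO 3, Dlx1 measured 69.4 CPM against 18.6 to 24.2 CPM in the other IUO libraries, and Dlx2 20.7 CPM against 3.44 to 6.17 CPM. Sp9 in PNO 1 measured 8.26 CPM against 5.42 to 5.64 CPM. PNO 2 is the library with the highest striatal mean, and IUO 3 is the IUO library with raised bulb markers. The part of these markers was not tested.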

How the results depend on the processing

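Depth limits Sp9 most, with as few as 59 counts in IUO 4, and 4 animals per group from 2 dams limit all comparisons. The number of genes called, 0 in each comparison, was 1 in PNO against saline by limma on log2(FPKM + 0.5), log2(FPKM + 0.1) or log2(FPKM + 1), and 11 in the fit of its 2 groups. DESeq2 called 117 (PNO), 11 (IUO) and 8 (IUO against PNO). Leaving out single libraries gave 0 to 19, 0 to 1 and 0 to 1 in that order. Without the 4 bulb-raised libraries the counts were 3, 1 and 3, and without the 4 striatum-raised libraries 0, 4 and 3. The median of the 10 genes in PNO against saline, 1.19, was 1.09 to 1.28 without single libraries, 0.85 without the bulb-raised libraries and 0.042 with marker covariates. In IUO against saline, 0.74, it was 0.26 to 0.88 without single libraries and -0.12 with the covariates. The number of positive members was 6 with the covariates in PNO, 3 with them in IUO, 6 in IUO without the bulb-raised libraries, and 6 to 10 there without single libraries. In IUO against PNO it was 1 with the covariates, 1 without the striatum-raised libraries and 0 to 1 without single libraries. The labels give replicate numbers no meaning. Deviations from the group means correlated at 0.0153 to 0.411 in the 12 same-numbered pairs, 4 of them over 0.1. Each of these 4 joined libraries alike in raised markers. They were IUO 2 with PNO 2 and PNO 2 with saline 2 (striatum-raised), IUO 3 with PNO 3 (bulb-raised), and IUO 4 with saline 4 (neither). IUO 2 with saline 2, also both striatum-raised, correlated at 0.032. Of 12 libraries, 8 were closest to one of their own number. Pairing and shared markers cannot be told apart here, and neither was tested. With the replicate block the counts of genes called were 0 in each comparison and the medians 1.23, 0.71 and -0.63. A minimum mean of 2 FPKM left 8 members. Of 744 recomputed values of single members, 33 moved by over 1 SD between replicates, 17 of them with the covariates and 10 without the bulb-raised libraries, and the cause was not tested.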

Other observations

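Within the pairs of related genes, the ratio of CPM was not the same in all libraries. The ratio is not scaled to gene length, so only its change between libraries can be read. Dlx1 to Dlx2 was 3.00 to 4.37 in saline, 2.38 to 2.90 in PNO and 3.01 to 6.52 in IUO, and every PNO library was below every saline library. Dlx5 to Dlx6 was 1.22 to 2.42 in saline. It was 2.00, 2.29 and 2.27 in PNO 1, PNO 3 and PNO 4, 2.06 in IUO 3, 1.82 in IUO 1, 0.70 in IUO 4, and 1.28 and 1.43 in PNO 2 and IUO 2, the libraries with the highest striatal means. Meis2 to Meis1 was 17.3 to 25.0 in saline, 14.3 to 16.3 in PNO and 9.49 to 15.8 in IUO, with the lowest value in IUO 3. Meis1 was thus higher relative to Meis2 in all 8 libraries from exposed animals than in all 4 saline libraries. The nearest values were 16.3 in PNO 2 and 17.3 in saline 1. How many other gene pairs separate the groups in this way is not given. These ratios were looked at after the levels were known and were not tested, so no effect of exposure is read from them.

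Spp1, the osteopontin gene, measured 17.5 to 39.6 CPM in the 4 bulb-raised libraries and 1.65 to 5.0 CPM in the other 8. Markers of other tissue also differed between libraries within groups. For 5 genes of the meninges the lowest mean log2 CPM was 3.97, in IUO 2, and the highest 5.27, in PNO 4. That of the 2 choroid plexus genes tested was -1.69 in IUO 3 and 4.98 in IUO 2. The endothelial and blood list (3 genes tested) ran from 3.56 in saline 2 to 5.01 in saline 1.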
